A study of Homo sapiens with 9 samples.

Results

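Aminoacyl-tRNA synthetases are the enzymes that join each amino acid to its transfer RNA. The genes described here are 36 of the 58735 genes in the deposited count table, taken by their names as the table spells them. Of these, 20 encode enzymes of the cytosol and 16, with names ending in 2, encode enzymes of the mitochondrion. Older symbols are used throughout, so that AARS stands for the gene now named AARS1.

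RNA was sequenced in 9 libraries from FaDu, a long-established carcinoma line of squamous epithelium from the human hypopharynx. The labels give 3 wild-type control libraries, 3 with an AMIGO2 knockdown, called KD-labelled here, and 3 that combine this knockdown with overexpression of CAPN2, called KD+CAPN2-labelled. All were untreated biological replicates of that 1 line, so p-values set each difference against the spread between replicates of this line alone. AMIGO2 encodes a cell-surface adhesion protein and CAPN2 the large subunit of the protease calpain-2. Neither the construct used for the knockdown nor the one for overexpression is given in the sources used here.

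The labelled knockdown could not be seen in the counts. AMIGO2 stood at 27.6 ± 1.73 CPM (read count scaled to a common library size; SD, n = 3) in control and at 27.7 ± 3.41 CPM in the KD-labelled libraries, and at 39.0 ± 3.79 CPM in the KD+CAPN2-labelled ones. CAPN2 stood at 462 ± 13.9, 418 ± 20.3 and 499 ± 1.29 CPM in the same order. At an edgeR adjusted p under 0.05, both genes were higher in the KD+CAPN2-labelled libraries than in the KD-labelled ones (CAPN2 log2 0.26, AMIGO2 0.49). Against control CAPN2 did not pass there (log2 0.11), while AMIGO2 was higher (log2 0.50). Groups are therefore named by label, and each direction given below is a difference between such groups. Library totals ran from 15158607 to 19737562 counts. All 8 squamous epithelial markers were detected, with a summed level of 7320 to 7768 CPM in control, 3849 to 4770 CPM in the KD-labelled libraries and 4478 to 5023 CPM in the KD+CAPN2-labelled libraries. Most of that difference was the keratin gene KRT5, with means of 4437, 1207 and 1616 CPM, whereas the cadherin gene CDH1 was higher in both labelled sets, at 381, 455 and 614 CPM. The 4 endothelial markers summed to 17.5 to 22.5, 43.3 to 49.5 and 16.2 to 16.5 CPM. Most of that was CDH5, while PECAM1 reached at most 0.35 CPM and KDR was at 0 in all libraries. The 5 fibroblast markers summed to 8.19 to 9.73, 11.0 to 13.9 and 13.5 to 15.4 CPM, with PDGFRA at 0, and the 4 blood markers to at most 0.203 CPM, with HBB at 0. Their part in the differences below was not tested.

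Each synthetase activates 1 amino acid with ATP and transfers it to the end of the matching tRNA, and the charged tRNA then enters translation. Cytosolic and mitochondrial ribosomes use separate sets of tRNA, and for most amino acids a separate nuclear gene provides the mitochondrial enzyme. Several cytosolic enzymes are held together with scaffold proteins in the multisynthetase complex. When tRNA stays uncharged, the kinase GCN2, encoded by EIF2AK4, phosphorylates the initiation factor eIF2, and the transcription factor ATF4 is then translated. ATF4 with a C/EBP partner is known to bind a response element in the promoters of amino acid synthesis, transport and tRNA charging genes.

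Over the 3 comparisons, cytosolic genes were called in both directions and mitochondrial genes were called lower. In the KD+CAPN2-labelled libraries, compared with the KD-labelled ones, 12 of 20 cytosolic genes rose and 7 fell, while 0 of 16 mitochondrial genes rose and 7 fell. Of all 16812 genes tested, 23.7% rose and 25.6% fell in that comparison, 49.2% in all, and of the members 26 of 36 were called. The largest rise among the members was that of WARS, 3.11-fold, and the largest falls were those of FARSB and MARS2, both 1.93-fold. The counts of 0 also held at an unadjusted p under 0.05 and with DESeq2. Because RNA was taken from whole cultures, fewer cells of a type and less RNA per cell cannot be told apart.

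Promoter letters are shown for the members that hold the core of the C/EBP-ATF response element, since 7 of these 8 genes rose in that comparison. RefSeq promoter windows, from 250 bases before to 50 after the annotated start on GRCh38.p14, were at hand for 16 cytosolic and 14 mitochondrial members. They lacked DARS, LARS, VARS, YARS, AARS2 and VARS2. The motif TGATGNAA was searched on both strands. It was found in 7 of the 16 cytosolic genes with a window (43.8%) and in 1 of the 14 mitochondrial genes (7.14%), against 4.46% of all 27305 genes with a window of this length. Some genes have more than 1 window, and a match in any of them was counted. The stretches run 5′ to 3′ on the strand of the gene, with the matched letters in capitals.
AARS, chr16:70289674-70289733, minus strand: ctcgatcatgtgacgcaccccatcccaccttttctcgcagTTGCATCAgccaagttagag
CARS, chr11:3057406-3057465, minus strand: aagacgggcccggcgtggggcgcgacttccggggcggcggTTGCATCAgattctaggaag
GARS, chr7:30594805-30594864, plus strand: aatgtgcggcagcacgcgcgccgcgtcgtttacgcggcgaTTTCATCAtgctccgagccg
IARS, chr9:92293691-92293750, minus strand: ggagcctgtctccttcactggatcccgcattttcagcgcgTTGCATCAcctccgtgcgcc
MARS, chr12:57488024-57488083, plus strand: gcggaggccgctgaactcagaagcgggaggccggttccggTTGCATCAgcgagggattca
NARS, chr18:57621807-57621862, minus strand: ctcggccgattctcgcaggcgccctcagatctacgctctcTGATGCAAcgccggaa
TARS, chr5:33440927-33440986, plus strand: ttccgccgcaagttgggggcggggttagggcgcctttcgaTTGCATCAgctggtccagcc
YARS2, chr12:32756075-32756134, minus strand: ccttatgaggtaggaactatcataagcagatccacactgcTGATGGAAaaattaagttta

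In 6 of the 7 cytosolic stretches the matched letters were TTGCATCA or its reverse complement TGATGCAA, and GARS had TTTCATCA. That narrower form, picked out after the matches were seen, was in 1.08% of all genes with a window. In CARS, GARS, IARS, MARS, NARS and TARS the match began within 33 bases of the start, and in AARS and YARS2 it began 187 and 197 bases before it. Of the cytosolic members with a window, 7 of the 10 that rose in the KD+CAPN2-labelled libraries held the motif, and 0 of the 6 that fell did. The 3 risen genes without a match in their windows were EPRS, SARS and WARS. The E-box CACGTG, which reads the same on both strands, was in 1 of the 16 cytosolic and 3 of the 14 mitochondrial genes, against 8.77% of all genes with a window. A match is a run of letters in this window, and binding was not measured.

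Cytosolic and mitochondrial genes differed widely in level. Per kilobase of merged exon, the highest mean in the control libraries was that of AARS, at 96.1 CPM per kilobase, followed by SARS at 89.6, KARS at 78.9, TARS at 75.5 and GARS at 61.5. The lowest cytosolic level on that scale was that of CARS, at 6.72 CPM per kilobase. Among the mitochondrial genes, IARS2 at 52.4 and YARS2 at 44.7 CPM per kilobase stood highest, and the others lay at or below the 14.9 CPM per kilobase of MARS2. In the KD+CAPN2-labelled libraries the order at the top was AARS at 158, SARS at 139, WARS at 104, GARS at 93.0 and TARS at 91.9 CPM per kilobase, and KARS was at 51.0. A merged exon length spans all isoforms, so genes with many isoforms are placed low on this scale.

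SARS2, the mitochondrial seryl-tRNA synthetase gene, was the lowest member, at 0.394 CPM per kilobase in control. Its libraries ran from 0.947 to 1.98 CPM, which rest on 218 counts in all 9 libraries. Of its 3231 exon bases, 1492 lie in the readthrough gene AC011455.2 on the same strand, which had 0 counts. It also shares 349 exon bases with MRPS12 on the other strand, which had 6060 counts over the 9 libraries. Reads in these shared bases may have been left out or counted for the wrong gene, and the level of SARS2 is uncertain to that extent.

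In the KD-labelled libraries, compared with control, 9 of 20 cytosolic genes fell and 0 rose, and 5 of 16 mitochondrial genes fell and 0 rose. Of all genes tested, 18.5% fell and 16% rose, 34.6% in all, and of the members 14 of 36 were called. By edgeR at an unadjusted p under 0.05, and by DESeq2, 0 members rose here as well. The median log2 fold change was -0.13 over the cytosolic genes and -0.04 over the mitochondrial genes, against -0.01 over all genes tested. The cytosolic median was -0.07 with library totals alone and -0.08 without the first KD-labelled library. The mitochondrial median was -0.0045 without that library and -0.11 without the third. The cytosolic genes that fell were AARS, CARS, FARSA, MARS, QARS, SARS, VARS, WARS and YARS. The mitochondrial genes that fell were AARS2, EARS2, LARS2, MARS2 and VARS2.

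MARS, which encodes the methionyl enzyme that also charges the initiator tRNA, had the lowest adjusted p of the members here. Its level was 267, 276 and 282 CPM in the control libraries and 186, 176 and 173 CPM in the KD-labelled ones. All 3 labelled libraries lay below all 3 controls, a 1.54-fold fall (log2 -0.63 ± 0.081 SE, edgeR quasi-likelihood adjusted p = 9.77e-06). VARS, the valyl enzyme gene, stood at 253, 270 and 270 CPM in control and at 183, 151 and 170 CPM in the KD-labelled libraries. It fell 1.58-fold (log2 -0.66 ± 0.089, edgeR adjusted p = 1.78e-05). AARS, the alanyl enzyme gene, stood at 409, 443 and 444 CPM in control and at 307, 258 and 280 CPM in the KD-labelled libraries. It fell 1.54-fold (log2 -0.62 ± 0.088, edgeR adjusted p = 2.71e-05). WARS, the tryptophanyl enzyme gene, which is also known as a gene induced by interferon, stood at 289, 310 and 304 CPM in control. The KD-labelled libraries had 207, 207 and 226 CPM of it, a 1.41-fold fall (log2 -0.50 ± 0.081, edgeR adjusted p = 0.000114). None of these 4 genes had a labelled library within the range of the controls.

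The mitochondrial genes with the lowest adjusted p had similar folds at lower levels. VARS2 stood at 26.0, 30.1 and 28.9 CPM in control and at 18.9, 17.5 and 16.4 CPM in the KD-labelled libraries. It fell 1.61-fold (log2 -0.69 ± 0.112, edgeR adjusted p = 0.00011). VARS2 shares 1858 of its 8448 exon bases with GTF2H4 on the same strand, to which 20 counts were assigned over the 9 libraries. LARS2, the mitochondrial leucyl enzyme gene, stood at 64.3, 61.9 and 66.1 CPM in control and at 48.0, 43.4 and 40.1 CPM in the KD-labelled libraries. It fell 1.46-fold (log2 -0.55 ± 0.097, edgeR adjusted p = 0.000244). AARS2 fell 1.56-fold, from 31.0, 29.8 and 26.1 CPM to 18.8, 19.2 and 17.9 CPM (log2 -0.64 ± 0.133, edgeR adjusted p = 0.00103).

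Not all members moved between these groups. LARS, the cytosolic leucyl enzyme gene, stood at 161, 150 and 150 CPM in control and at 145, 172 and 153 CPM in the KD-labelled libraries, and the 95% interval of its log2 difference ran from -0.15 to 0.21. KARS, the lysyl enzyme gene, which serves both compartments, stood at 317, 324 and 322 CPM in control and at 299, 288 and 348 CPM in the KD-labelled libraries, with an interval from -0.22 to 0.14. Among the mitochondrial genes, the intervals of PARS2 (-0.26 to 0.29) and YARS2 (-0.20 to 0.17) also spanned 0. For 9 cytosolic and 5 mitochondrial genes the 3 labelled libraries lay below all controls, and for 1 cytosolic gene, RARS, above them, against 44.7% of all genes tested without overlap in either direction.

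Some of these calls, or their sizes, rested on single libraries or settings. After correction for GC content and length, VARS (log2 -0.39), FARSA (-0.31), QARS (-0.22), AARS2 (-0.40) and VARS2 (-0.44) were still called lower, from -0.66, -0.52, -0.38, -0.64 and -0.69. The call of YARS (log2 -0.22, edgeR adjusted p = 0.0393) was lost under 14 of 18 alternatives, with adjusted p from 0.0238 to 0.726. That of SARS (log2 -0.31, edgeR adjusted p = 0.0125) was lost without the third control library (adjusted p = 0.0649) and without the second KD-labelled library (adjusted p = 0.0855). Without the first KD-labelled library, FARSB (log2 0.24, adjusted p = 0.0362) and IARS2 (log2 0.30, adjusted p = 0.00428) were called higher. Without the third, GARS (log2 -0.20, adjusted p = 0.0388) and TARS2 (log2 -0.28, adjusted p = 0.0363) were called lower.

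**Figure D1:**
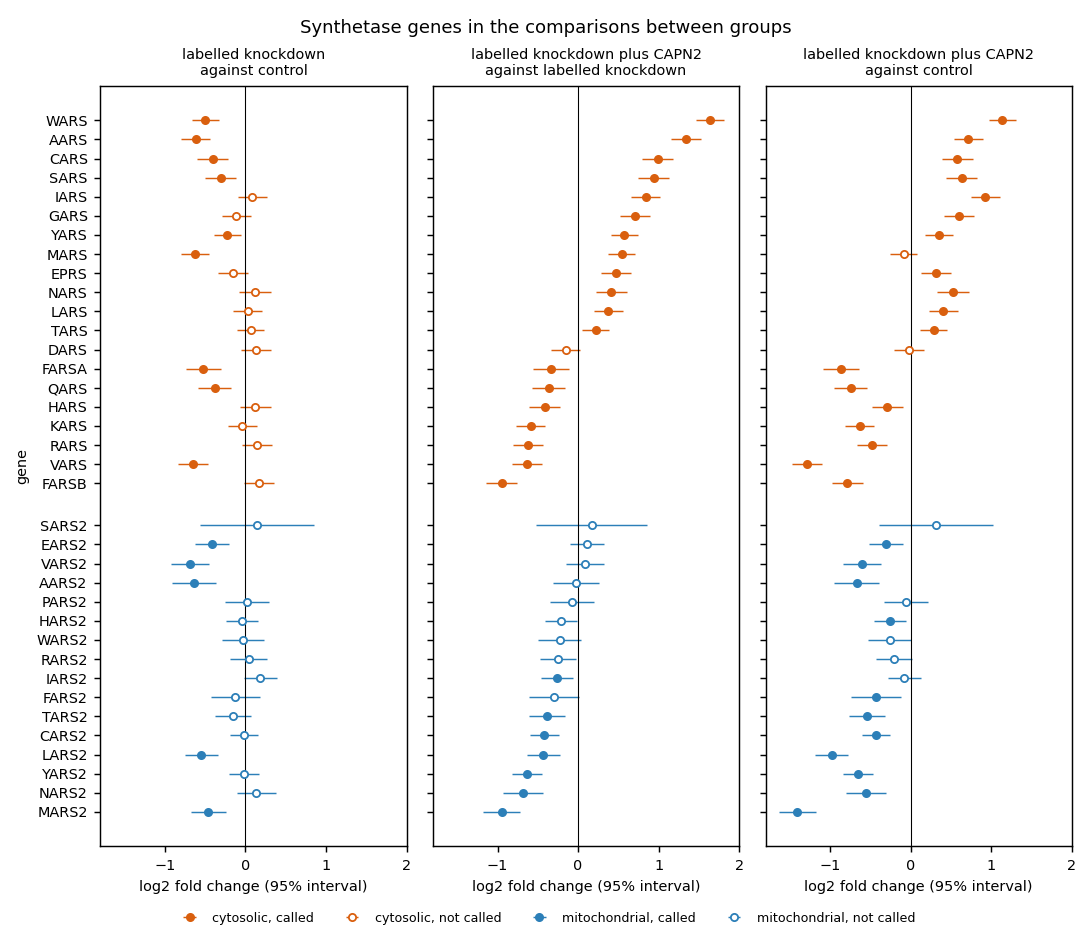
Log2 fold change of each of the 36 genes (x axis, with its 95% interval as a line) in the 3 comparisons of sets of libraries, cytosolic genes in orange above and mitochondrial genes in blue below. Filled points passed an adjusted p of 0.05. In the middle panel 12 cytosolic genes lie to the right of 0 and 7 to the left among the filled points, and the 7 filled mitochondrial points all lie to the left.

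The comparison of the KD+CAPN2-labelled libraries with the KD-labelled ones split the cytosolic genes. The genes that rose were WARS, AARS, CARS, SARS, IARS, GARS, YARS, MARS, EPRS, NARS, LARS and TARS, with log2 fold changes from 1.64 down to 0.22. Those that fell were FARSB, VARS, RARS, KARS, HARS, QARS and FARSA, with log2 fold changes from -0.95 to -0.34, and DARS did not pass (log2 -0.15, 95% interval -0.34 to 0.03). The median was 0.39 over the cytosolic genes and 0.01 over all genes tested. For 12 cytosolic genes the KD+CAPN2-labelled libraries lay above all the KD-labelled ones and for 7 below, so that DARS alone overlapped. Of all genes tested, 54% did not overlap in either direction.

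WARS (chromosome 14, 100333788 to 100376805 on GRCh38, minus strand) stood at 207, 207 and 226 CPM in the KD-labelled libraries and at 644, 671 and 676 CPM in the KD+CAPN2-labelled libraries. It rose 3.11-fold (log2 1.64 ± 0.083 SE, edgeR quasi-likelihood adjusted p = 1.93e-11). AARS (chromosome 16, 70252295 to 70289543, minus strand) rose 2.52-fold, from 307, 258 and 280 CPM to 691, 690 and 749 CPM (log2 1.33 ± 0.089, edgeR adjusted p = 7.59e-10). In both genes the lowest library of the higher set lay above the highest library of the control set as well. CARS, the cysteinyl enzyme gene, stood at 51.4, 46.9 and 54.3 CPM in the KD-labelled libraries and at 93.4, 104 and 105 CPM in the KD+CAPN2-labelled ones. It rose 1.98-fold (log2 0.99 ± 0.092, edgeR adjusted p = 6.28e-08). SARS, the seryl enzyme gene, which also charges the tRNA from which selenocysteine is made, stood at 271, 250 and 311 CPM and at 511, 526 and 560 CPM in the same order. It rose 1.92-fold (log2 0.94 ± 0.091, edgeR adjusted p = 1.14e-07).

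The cytosolic genes that fell included both subunits of the phenylalanyl enzyme. FARSB (chromosome 2, 222570536 to 222656337, minus strand), which encodes its beta subunit, stood at 95.4, 111 and 110 CPM in the KD-labelled libraries and at 53.0, 57.0 and 53.8 CPM in the KD+CAPN2-labelled libraries. It fell 1.93-fold (log2 -0.95 ± 0.092, edgeR adjusted p = 1.03e-07). FARSA, the alpha subunit, was at 61.6, 45.8 and 54.8 CPM and at 41.2, 43.2 and 43.6 CPM, a 1.27-fold fall (edgeR adjusted p = 0.0122). Without the first KD-labelled library that call was lost (log2 -0.25, adjusted p = 0.0515).

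VARS (chromosome 6, 31777518 to 31795953, minus strand) fell again in this comparison, to 103, 106 and 116 CPM, 1.55-fold below the KD-labelled libraries (log2 -0.63 ± 0.090, edgeR adjusted p = 1.16e-05). RARS, the arginyl enzyme gene, stood at 132, 134 and 153 CPM in the KD-labelled libraries and at 94.1, 91.1 and 86.6 CPM in the KD+CAPN2-labelled ones. It fell 1.54-fold (log2 -0.62 ± 0.089, edgeR adjusted p = 1.21e-05). KARS fell 1.5-fold, to 201, 210 and 210 CPM (log2 -0.59 ± 0.087, edgeR adjusted p = 1.59e-05). These 3 genes had every library of the lower set below every library of both other sets.

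GARS and KARS each provide the enzyme of both compartments from 1 gene, and they moved apart. GARS, the glycyl enzyme gene, stood at 253, 258 and 256 CPM in control, 213, 231 and 265 CPM in the KD-labelled libraries and 377, 384 and 398 CPM in the KD+CAPN2-labelled libraries. Its rise over the KD-labelled libraries was 1.63-fold (log2 0.71 ± 0.088, edgeR adjusted p = 2.33e-06), while KARS fell as given above.

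MARS rose 1.46-fold in this comparison, to 250, 256 and 273 CPM (log2 0.54 ± 0.081, edgeR adjusted p = 1.83e-05). It shares 355 of its 7028 exon bases with DDIT3 on the other strand, and reads in these bases cannot be told apart without strand. DDIT3 stood at 9.50, 9.85 and 13.1 CPM in the KD-labelled libraries and at 68.3, 72.9 and 78.5 CPM in the KD+CAPN2-labelled ones. The part of these reads in the level of MARS was not tested. The call of TARS, the smallest of the 12 rises (log2 0.22, edgeR adjusted p = 0.0316), was lost under 11 of 18 alternatives, with adjusted p from 0.00117 to 0.188. Leaving out any 1 of 8 libraries was among them, and its log2 value then ran from 0.16 to 0.25 over the 9 libraries left out in turn.

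The mitochondrial genes that fell in the same comparison were MARS2, NARS2, YARS2, LARS2, CARS2, TARS2 and IARS2. MARS2 (chromosome 2, 197705369 to 197708387, plus strand), which encodes the mitochondrial methionyl enzyme, stood at 32.0, 32.2 and 33.7 CPM in the KD-labelled libraries and at 14.7, 18.9 and 17.1 CPM in the KD+CAPN2-labelled libraries. It fell 1.93-fold (log2 -0.95 ± 0.109 SE, edgeR adjusted p = 9.08e-07). YARS2, the mitochondrial tyrosyl enzyme gene and the 1 mitochondrial member with TGATGNAA in its window, stood at 85.2, 98.8 and 101 CPM and at 62.4, 59.8 and 61.6 CPM in the same order. It fell 1.55-fold (log2 -0.63 ± 0.090, edgeR adjusted p = 1.05e-05). NARS2, the mitochondrial asparaginyl enzyme gene, fell 1.61-fold, from 26.0, 29.4 and 34.0 CPM to 19.9, 18.3 and 17.4 CPM (log2 -0.69 ± 0.119, edgeR adjusted p = 8.92e-05). For these 3 genes the sets did not overlap.

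The remaining mitochondrial genes lay nearer to 0. The median over the 16 genes was -0.26, and it was -0.14 after correction for GC content and length, -0.13 with the replicate block added to that correction, and -0.36 without the first KD-labelled library. AARS2 stood at 18.8, 19.2 and 17.9 CPM in the KD-labelled libraries and at 15.9, 16.1 and 22.8 CPM in the KD+CAPN2-labelled ones, with a 95% interval of the log2 difference from -0.31 to 0.25. That of SARS2 ran from -0.52 to 0.86, the widest of the members. The call of IARS2 (log2 -0.27, edgeR adjusted p = 0.0281), whose sets overlapped, was lost under 7 of 18 alternatives, among them without the third KD-labelled library (adjusted p = 0.0904), and without the second (0.066) or the third (0.0773) KD+CAPN2-labelled library. Without the first KD-labelled library, HARS2 (adjusted p = 0.0454), RARS2 (0.0181) and WARS2 (0.0158) were called lower too, and so was the cytosolic gene DARS (0.0492). RARS2 was also called lower without the first KD+CAPN2-labelled library (0.0284), and FARS2 without the third (0.024).

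**Figure D2:**
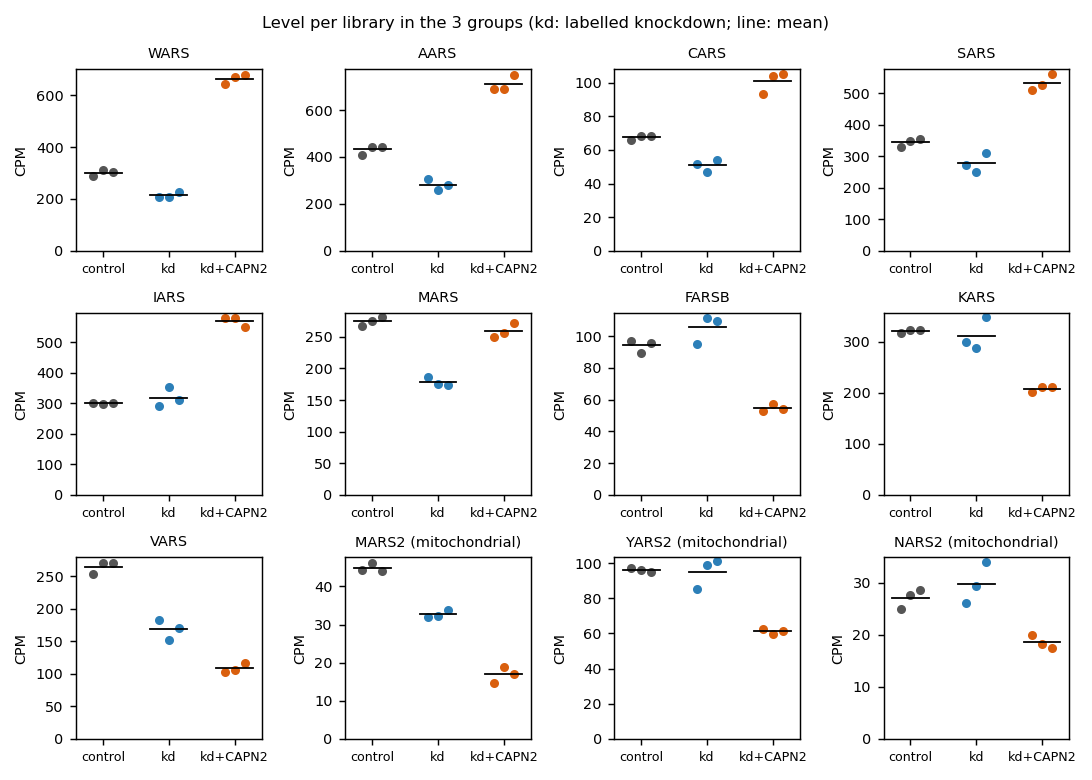
Level of 12 genes in CPM (y axis, from 0) in each of the 9 libraries (points, with the group mean as a line) for control, the labelled knockdown (kd) and the labelled knockdown plus CAPN2 (kd+CAPN2). WARS, AARS, CARS and SARS are lowest in the KD-labelled libraries and highest in the KD+CAPN2-labelled ones, and VARS and MARS2 step down from set to set, whereas FARSB, KARS, YARS2 and NARS2 are lowest in the last set.

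Compared directly with control, the KD+CAPN2-labelled libraries had 11 of 20 cytosolic genes higher and 7 lower, and 0 of 16 mitochondrial genes higher and 11 lower. Of all genes tested, 27.9% were higher and 28.4% lower, 56.3% in all, and of the members 29 of 36 were called. No mitochondrial gene was higher by edgeR at an unadjusted p under 0.05 or by DESeq2 either, with 0 of 16 in both. The medians were 0.30 and -0.43, against 0.02 over all genes. After correction for GC content and length they were 0.21 and -0.30. With upper-quartile factors they were 0.40 and -0.33, against 0.13 over all genes. This comparison uses the same libraries as the other comparisons, so its values stand beside them and are no separate evidence. WARS was 2.20-fold higher than control (log2 1.14 ± 0.081, edgeR adjusted p = 1.15e-09). IARS, the isoleucyl enzyme gene, stood at 300, 296 and 302 CPM in control and at 581, 579 and 549 CPM in the KD+CAPN2-labelled libraries, 1.90-fold higher (log2 0.93 ± 0.087, edgeR adjusted p = 3.82e-08). AARS and SARS were 1.64-fold and 1.55-fold higher than control.

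VARS showed the largest fall of the cytosolic genes against control, 2.44-fold (log2 -1.29 ± 0.091, edgeR adjusted p = 9.88e-10). FARSB fell 1.72-fold, FARSA 1.82-fold and QARS, the glutaminyl enzyme gene, 1.67-fold. QARS stood at 137, 153 and 144 CPM in control, 115, 98.8 and 120 CPM in the KD-labelled libraries and 80.2, 83.6 and 95.6 CPM in the KD+CAPN2-labelled libraries. MARS, which had fallen in the KD-labelled libraries, did not differ from control beyond its spread here (log2 -0.08, 95% interval -0.25 to 0.08), and neither did DARS (-0.02, interval -0.20 to 0.16).

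Among the mitochondrial genes MARS2 had the largest fall against control, 2.65-fold (log2 -1.41 ± 0.109, edgeR adjusted p = 3.11e-09), from 44.4, 46.1 and 44.2 CPM to 14.7, 18.9 and 17.1 CPM. LARS2 fell 1.97-fold, to 33.9, 30.5 and 33.2 CPM (log2 -0.98 ± 0.099, edgeR adjusted p = 9.89e-08). YARS2 fell 1.57-fold (log2 -0.65 ± 0.090, edgeR adjusted p = 5.29e-06). For 14 of the 16 mitochondrial genes all 3 libraries lay below all controls, against 66.9% of all genes tested without overlap in either direction. PARS2, which encodes the mitochondrial prolyl enzyme, and IARS2 did not pass, with 95% intervals from -0.34 to 0.21 and from -0.28 to 0.12.

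The calls of HARS, EARS2, FARS2 and HARS2 against control were each lost with upper-quartile scaling and with library totals alone. Those of EARS2 (log2 -0.17, adjusted p = 0.0693), FARS2 (-0.25, 0.124) and HARS2 (-0.09, 0.315) were also lost after correction for GC content and length. That correction brought FARSA from -0.86 to -0.54, LARS from 0.40 to 0.18, AARS2 from -0.67 to -0.37 and TARS2 from -0.54 to -0.29, all still called. Without the second KD+CAPN2-labelled library the adjusted p of HARS, EARS2, FARS2 and HARS2 was 0.0536, 0.0517, 0.0805 and 0.131. The call of HARS2 was also lost without the second control library (adjusted p = 0.126), as were those of EARS2 (0.0504) and EPRS (0.0564). That of FARS2 was lost without the first control library (0.113), and those of FARS2 (0.0903) and EARS2 (0.0569) without the first KD+CAPN2-labelled library. HARS and HARS2 lie head to head and share 437 exon bases on opposite strands, so their reads there cannot be told apart without strand. WARS2 was called lower without the first KD-labelled library (adjusted p = 0.0388).

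Read across the comparisons, the cytosolic genes showed a few patterns. The KD-labelled libraries against control are called the first comparison from here on and the KD+CAPN2-labelled against the KD-labelled libraries the second, and both use the KD-labelled libraries, so that a high or low level there enters both. AARS, CARS, SARS, WARS and YARS were lower than control in the KD-labelled libraries and higher than both other sets in the KD+CAPN2-labelled libraries. EPRS, GARS, IARS, LARS, NARS and TARS did not pass in the KD-labelled libraries and were higher than both other sets in the KD+CAPN2-labelled ones. FARSA, QARS and VARS stepped down in both comparisons, and FARSB, HARS, KARS and RARS fell in the second. The mitochondrial genes LARS2 and MARS2 also stepped down in both comparisons. AARS2, EARS2 and VARS2 fell in the first and were not called in the second, and CARS2, IARS2, NARS2, TARS2 and YARS2 fell in the second and were not called in the first. FARS2 and HARS2 were called lower against control and in neither of these 2 comparisons. PARS2, RARS2, SARS2 and WARS2 were called in none of the 3. Several members share exon bases with a gene on the other strand, and reads there cannot be told apart without strand. Among them are CARS2 with ING1 (326 bases), EARS2 with UBFD1 (370), KARS with TERF2IP (176), YARS with S100PBP (396) and WARS2 with AL359915.2 (180). Others are WARS with WDR25 (287), HARS with WDR55 (221) and GARS with GARS-DT (99). DARS with DARS-AS1 (305), MARS with ARHGAP9 (519) and AARS2 with TMEM151B (235) also belong here. HARS2 shares 152 exon bases with ZMAT2 on the same strand.

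**Figure D3:**
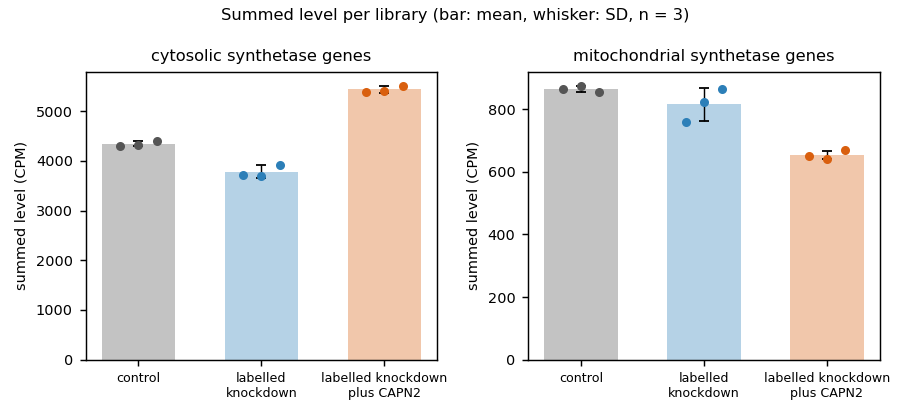
Summed level in CPM (y axis, from 0) of the 20 cytosolic genes (left) and the 16 mitochondrial genes (right) in each library (points), with the mean (bar) and SD (whisker) of the 3 libraries per group. In the KD+CAPN2-labelled libraries the cytosolic sum lies above and the mitochondrial sum below the libraries of the other groups.

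The cytosolic genes together held 4344 ± 48.3 CPM in control (SD, n = 3), 3778 ± 130 CPM in the KD-labelled libraries and 5438 ± 67.7 CPM in the KD+CAPN2-labelled ones. For the mitochondrial genes the sums were 865 ± 10.5, 816 ± 53.0 and 654 ± 13.9 CPM. The mean log2(CPM + 1) of the cytosolic genes exceeded that of the mitochondrial genes by 2.32, 2.28 and 2.37 in the control libraries and by 2.34, 2.27 and 2.29 in the KD-labelled ones, which overlap. In the KD+CAPN2-labelled ones the excess was 2.82, 2.89 and 2.78, above every other library. No test was made of these sums, since the members were chosen with results of these data known. Mitochondrial ribosomal RNA, which was not among the members, was 0.537% to 0.583% of counts in control, 0.877% to 1.08% in the KD-labelled libraries and 1.02% to 1.05% in the KD+CAPN2-labelled libraries.

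Genes for the same amino acid were compared in 17 pairs, with EPRS set beside both EARS2 and PARS2, since it encodes a glutamyl and a prolyl enzyme in 1 chain, and FARS2 beside both FARSA and FARSB. Between the KD+CAPN2-labelled libraries and the KD-labelled ones the cytosolic log2 fold change was the greater in 12 pairs. The log2 ratio of the pair lay above all KD-labelled libraries in 11 pairs, below them in 3 and overlapped in 3. Between the KD-labelled libraries and control the ratio was above in 3, below in 4 and overlapped in 10. Such ratios were not computed for all genes. Of single genes tested, 54% and 44.7% did not overlap in these 2 comparisons, in the same order. EPRS and FARS2 each enter 2 pairs, so the pairs are not independent.

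The tryptophanyl pair moved furthest apart. The log2 ratio of WARS to WARS2, on the scale of CPM + 1, was 3.17, 3.51 and 3.37 in control, 3.12, 2.81 and 2.76 in the KD-labelled libraries and 4.68, 4.86 and 4.66 in the KD+CAPN2-labelled libraries. The methionyl pair followed, since MARS rose and MARS2 fell, with log2 ratios of 2.50, 2.41 and 2.33 in the KD-labelled libraries and 4.0, 3.69 and 3.92 in the KD+CAPN2-labelled ones. The valyl pair went the other way, as VARS fell and VARS2 was not called, from 3.21, 3.04 and 3.30 to 2.43, 2.52 and 2.48. In the histidyl pair HARS and HARS2 kept overlapping ratios in all 3 comparisons.

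**Figure D4:**
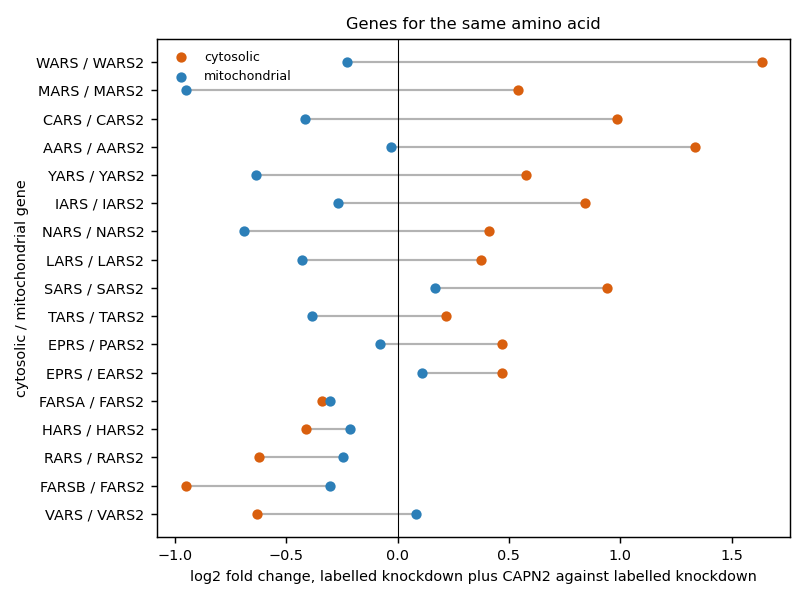
Log2 fold change of the KD+CAPN2-labelled libraries against the KD-labelled ones (x axis) for the cytosolic gene (orange) and the mitochondrial gene (blue) of the same amino acid (y axis, 17 pairs joined by a line). The orange point lies to the right in 12 pairs and to the left in 5, which are both phenylalanyl pairs and the histidyl, arginyl and valyl pairs.

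Genes for enzymes inside and outside the multisynthetase complex moved in both directions. Of the 8 genes for enzymes of the complex, EPRS, IARS, LARS and MARS rose and KARS, QARS and RARS fell between the KD-labelled libraries and the KD+CAPN2-labelled ones, with a median of 0.11. Of the 12 others, 8 rose and 4 fell, with a median of 0.49. The complex genes summed to 1711 ± 27.6 CPM in control, 1589 ± 55.4 in the KD-labelled libraries and 1874 ± 33.5 in the KD+CAPN2-labelled ones (SD, n = 3), and the others to 2633 ± 49.0, 2189 ± 112 and 3564 ± 101 CPM. By the fold of the catalytic domain, 6 of 9 class I genes rose and 3 fell, and 5 of 10 class II genes rose and 4 fell, with EPRS, which holds an enzyme of each class, counted in neither. Over all genes tested, 23.7% rose and 25.6% fell between those sets of libraries. None of these differences between subgroups was tested.

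The scaffold genes of the complex, AIMP1, AIMP2 and EEF1E1, were called in no direction by edgeR or DESeq2, nor at an unadjusted p under 0.05, between the KD-labelled libraries and the KD+CAPN2-labelled ones, with log2 values from -0.13 to -0.10. AIMP2 fell in the KD-labelled libraries, from 35.1, 41.2 and 39.4 CPM to 22.7, 21.3 and 30.5 CPM (log2 -0.64, edgeR adjusted p = 0.00102). It shares 532 of its exon bases with EIF2AK1 on the other strand.

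Mitochondria make part of their charged tRNA by other routes, in which QRSL1, GATB and GATC convert glutamyl-tRNA to glutaminyl-tRNA and MTFMT formylates the initiator methionyl-tRNA. Of these 4 genes, 0 rose and 2 fell in the KD+CAPN2-labelled libraries against the KD-labelled ones, GATC (log2 -0.42, edgeR adjusted p = 0.00246) and QRSL1 (log2 -0.29, adjusted p = 0.0271). Against control 3 of the 4 fell. Over all genes tested, 25.6% fell in the former comparison and 28.4% in the latter. QRSL1 stood at 36.9, 39.4 and 37.0 CPM in control, 29.7, 27.2 and 32.5 CPM in the KD-labelled libraries and 25.3, 22.6 and 25.0 CPM in the KD+CAPN2-labelled libraries. GATC shares 1729 of its 4422 exon bases with SRSF9 on the other strand.

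Genes for editing and for release of stalled peptidyl-tRNA moved in both directions. DTD1, which removes D-amino acids from tRNA, rose in the second comparison (log2 0.56, edgeR adjusted p = 0.00212). DTD2 (log2 -0.60) and PTRH2 (log2 -0.56) fell. In the first comparison DTD1 fell (log2 -0.45) and DTD2 rose (log2 0.49), the opposite of the second comparison, with which it shares libraries. PTRH2 shares 244 exon bases with CLTC on the other strand.

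Among relatives of the synthetases, SEPSECS, which completes selenocysteine on the tRNA that SARS charges, rose 1.97-fold. Its level was 10.4 ± 1.48 CPM in the KD-labelled libraries and 20.6 ± 3.33 CPM in the KD+CAPN2-labelled ones (SD, n = 3), and the sets did not overlap (log2 0.98 ± 0.143, edgeR adjusted p = 1.51e-05). TARSL2, a second cytosolic threonyl enzyme gene, rose in the KD-labelled libraries (log2 0.36, adjusted p = 0.00578) and PSTK passed in neither comparison.

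Of the 4 genes of tRNA maturation and export, XPOT, the exporter of mature tRNA from the nucleus, stood at 298, 293 and 294 CPM in control, 229, 265 and 260 CPM in the KD-labelled libraries and 537, 549 and 500 CPM in the KD+CAPN2-labelled libraries. Its 2.10-fold rise in the second comparison (log2 1.07 ± 0.085, edgeR adjusted p = 8.09e-09) lay between those of AARS and SARS. ELAC2, which trims the tRNA 3′ end in nucleus and mitochondrion, fell in both comparisons, by 0.55 and by 0.59 on the log2 scale. SSB fell in the second (log2 -0.31) and TRNT1, which adds the terminal CCA, rose in the first (log2 0.40). SSB shares 572 exon bases with METTL5 and TRNT1 595 with CRBN, both on the other strand.

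A list of 8 genes was taken for the sensing of uncharged tRNA and the response to it. Of these, 6 rose and 1 fell in the second comparison, with a median of 1.84. The 6 that rose are response genes. Shares over all genes tested were 23.7% risen and 25.6% fallen there. Against control, the KD+CAPN2-labelled libraries had 5 of the 8 higher and 2 lower, with a median of 0.79. Over all genes tested, 27.9% were higher and 28.4% lower than control. ATF4 stood at 562, 595 and 559 CPM in control, 421, 355 and 455 CPM in the KD-labelled libraries and 582, 620 and 676 CPM in the KD+CAPN2-labelled libraries, a 1.52-fold rise in the second comparison (log2 0.61, edgeR adjusted p = 3.55e-05). ASNS, which encodes asparagine synthetase, rose 4.09-fold, from 6.76, 6.57 and 5.45 CPM to 26.7, 25.0 and 25.3 CPM (log2 2.03 ± 0.130, edgeR adjusted p = 4.23e-10). The control libraries had 11.2, 11.4 and 9.96 CPM of ASNS. The pseudokinase gene TRIB3 rose 3.60-fold (log2 1.85 ± 0.091, adjusted p = 1.41e-11) and DDIT3 6.77-fold (log2 2.76 ± 0.126, adjusted p = 6.64e-12). Mean levels in control, KD-labelled and KD+CAPN2-labelled libraries were 99.2, 80.7 and 290 CPM for TRIB3 and 5.60, 10.8 and 73.2 CPM for DDIT3. ASNS shares 1985 of its 4455 exon bases with AC079781.5 on the same strand, which had 89 counts over the 9 libraries. DDIT3 shares 355 of its 1307 exon bases with MARS on the other strand. The part of reads in these shared bases was not tested. EIF2AK4, the kinase gene, fell (log2 -0.29, adjusted p = 0.00951) and GCN1, its activator, was not called. In the first comparison 6 of the 8 fell and DDIT3 alone rose (log2 0.95), with SESN2 (log2 -1.10) and CHAC1 (log2 -1.21) the furthest down. Among all genes tested, 18.5% fell and 16% rose there. The RNA level of ATF4 does not show how much of it was translated, and the charging of tRNA was not measured. Whether uncharged tRNA had a part in the differences of these 8 genes was not tested.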

How the data were processed

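The authors deposited 1 table of raw read counts for 58735 genes in 9 libraries, as whole numbers with no normalisation. Per the submitters' processing notes, the tools were featureCounts 1.5.0-p3, StringTie 1.3.3b and HISAT2 2.0.5, with no role stated, and the build was hg19. For 58724 identifiers the coordinates in the table were nevertheless those of GENCODE 29 on GRCh38, which is used for positions. How reads were counted by strand, in several places or in overlapping genes is not given in the sources used here, so a read in exons of 2 genes may have been dropped or given to either.

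Tests were run with edgeR 4.0.16 in R 4.3.3. filterByExpr (minimum count 10, by group) left 16812 genes, all 36 members among them. Libraries were scaled by trimmed mean of M values (TMM), and levels are TMM-scaled CPM. All 9 libraries entered 1 quasi-likelihood fit with a coefficient per group and 6 residual degrees of freedom. Benjamini-Hochberg adjustment ran over every gene tested, and genes with an adjusted p under 0.05 are said to rise, fall or be called. An SE is the size of the log2 fold change over the square root of F. The script was tested on simulated counts. Sampling error was not separated from the spread between replicates. SARS2 had the fewest counts of the members, 218 in all 9 libraries, followed by PARS2 with 1984 and FARS2 with 2012.

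Members and lists were chosen with earlier results of these data known, so lists are described by counts and medians without a test. Per comparison, a rule picked genes to be described singly. It took the 4 cytosolic and 3 mitochondrial members with the lowest adjusted p in each direction. It also took up to 2 members per compartment outside the common direction, and up to 2 genes of each other list in each direction. Levels in every library are given for part of these genes, and means, folds or log2 values for the others. Levels of GARS, MARS, FARSA, ATF4 and ASNS were added for their function or overlap. Alternatives were DESeq2 1.42.0, upper-quartile factors, library totals alone, no filter, a stricter filter (1 CPM in 3 libraries), the compared groups alone, a replicate block, a correction for GC content and length (mgcv 1.9.3) and each library left out in turn. RefSeq windows matched 30 of 36 members by symbol or older symbol. In the list for editing and peptidyl-tRNA release, 1 gene is not reported here.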

Additional observations from a re-analysis of the deposited data

How the results depend on the processing

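Each of the 36 genes was tested again in the 3 comparisons under 18 alternatives. Of the genes called, 12 of 14, 23 of 26 and 24 of 29 were called in the same direction under all of them (KD-labelled libraries against control, KD+CAPN2-labelled against KD-labelled, and KD+CAPN2-labelled against control), and 0 changed sign while called. Over all alternatives the cytosolic genes called higher in the second comparison numbered 11 or 12 and those called lower 7. Without the first KD-labelled library those 7 held DARS in place of FARSA. No mitochondrial gene was called higher in the second or the third, and those called lower numbered 6 to 10 and 8 to 12. Called lower in the first were 7 to 10 cytosolic and 5 to 6 mitochondrial genes. In the first, the count of genes called higher over the libraries left out in turn ran from 0 to 1 in either compartment, and 1 mitochondrial gene, IARS2, was called higher with library totals alone. After the GC correction EPRS was called lower in the first (-0.27) and RARS2 (-0.27) and WARS2 (-0.30) in the third, while the calls of YARS in the first (-0.03, adjusted p = 0.714), IARS2 in the second (-0.14, 0.0692) and EARS2 (-0.17, 0.0693), FARS2 (-0.25, 0.124) and HARS2 (-0.09, 0.315) in the third were lost. Scaling moved the centre of all genes. With upper-quartile factors the median over all genes in the third comparison went from 0.02 to 0.13, and the share of calls that were higher in the first went from 46.4% to 53.9%, and to 56.5% with library totals alone.

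Replicate numbers were shared between groups, but samples with the same number did not deviate together (correlations from -0.09 to 0.06), so the numbers were not taken as pairs. A replicate block changed the genes called from 5812 to 5376, from 8278 to 7912 and from 9468 to 9149 in the 3 comparisons. Among the members, the block left 8 cytosolic and 5 mitochondrial genes lower in the first, 11 cytosolic genes higher in the second and 10 mitochondrial genes lower in the third.

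The log2 values that changed sign, with no call on either side, follow. With upper-quartile factors, the first comparison gave the mitochondrial median 0.0049, KARS 0.0018, CARS2 0.027, HARS2 0.00014, WARS2 0.010 and YARS2 0.027. With library totals alone, the first comparison gave the mitochondrial median 0.022, KARS 0.018, CARS2 0.044, HARS2 0.018, WARS2 0.025 and YARS2 0.044. Without a filter, the first comparison gave CARS2 0.0076 and YARS2 0.0084. With the stricter filter, the first comparison gave CARS2 0.012 and YARS2 0.012. With the compared groups alone, the first comparison gave CARS2 0.011 and YARS2 0.011. After correction for GC content and length, the first comparison gave DARS -0.044, FARSB -0.011, IARS -0.012, LARS -0.12, RARS -0.033, TARS -0.033, CARS2 0.16 and RARS2 -0.15. After that correction with the block, the first comparison gave DARS -0.044, FARSB -0.012, IARS -0.013, LARS -0.12, RARS -0.034, TARS -0.035, CARS2 0.16 and RARS2 -0.15. With upper-quartile factors, the second comparison gave AARS2 0.033. With library totals alone, the second comparison gave AARS2 0.0062. After correction for GC content and length, the second comparison gave AARS2 0.029 and PARS2 0.061. After that correction with the block, the second comparison gave AARS2 0.029 and PARS2 0.059. With upper-quartile factors, the third comparison gave DARS 0.083, MARS 0.020, IARS2 0.025 and PARS2 0.044. With library totals alone, the third comparison gave DARS 0.076, MARS 0.012, IARS2 0.017 and PARS2 0.036. With the stricter filter, the third comparison gave DARS 0.0045. After correction for GC content and length, the third comparison gave MARS 0.058 and PARS2 0.19. After that correction with the block, the third comparison gave MARS 0.058 and PARS2 0.18. The cause was not tested.

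With libraries left out in turn, log2 values ran in the first comparison from -0.13 to 0.042 for KARS, -0.013 to 0.084 for LARS, -0.049 to 0.028 for CARS2, -0.070 to 0.011 for HARS2, -0.0078 to 0.044 for PARS2, -0.0042 to 0.11 for RARS2, -0.020 to 0.46 for SARS2, -0.15 to 0.10 for WARS2 and -0.062 to 0.060 for YARS2. They ran in the second from -0.22 to 0.052 for AARS2, -0.0031 to 0.22 for EARS2, -0.20 to 0.0094 for PARS2 and -0.034 to 0.32 for SARS2. They ran in the third from -0.081 to 0.0055 for DARS and -0.18 to 0.026 for PARS2. Where 1 library of a group is left out, 2 remain. Depth limits SARS2, whose shared exon bases also leave its level uncertain, and no difference was detectable for it.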
